A study of Mus musculus with 656 samples.

Results

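SC-514 at 25 µM, the lowest of the inhibitor concentrations used, was compared with 0 µM SC-514 in mouse 3T3 cells stimulated with TNF-α for 60 min. The comparison holds 8 of the 164 libraries of the series, 4 at 25 µM and 4 at 0 µM, assigned to their groups by labels alone and not by any measured value. 3T3 cells are an established line of mouse embryonic fibroblasts. RNA was measured by TagSeq, which reads the 3' ends of polyadenylated transcripts. Each library stands in the labels under 4 sample records and was counted as 1. The groups, each of 4 libraries, were as follows. Cells of the 25 µM group were held for 1 hour with 25 µM SC-514 and then received TNF-α at 10 ng/ml for 60 min. Cells of the 0 µM group went through the same steps without the compound. Groups at 50 and 100 µM, groups at 25 and 0 µM after 15, 30, 120 and 360 min of TNF-α, and groups at 25 and 0 µM after 60 min of IL-1β at 1 ng/ml served to place the result. An unstimulated group had received neither compound nor cytokine. No group had the compound without a cytokine, and no vehicle is named for the 0 µM groups. The prefixes of sample titles and of library names disagree on which stimulus is which. The stimulus named in the labels was followed, so that TNF-α and IL-1β stand here for libraries labelled so. The labels do not say whether a group's 4 libraries were separate cultures. Unless said otherwise, each p-value rests on the spread among libraries within groups, taken over all 41 groups of the series. This spread may be technical.

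TNF-α binds its receptor on fibroblasts and activates the IKK complex, whose catalytic subunit IKKβ phosphorylates the inhibitor IκBα. IκBα is then degraded, and dimers of the NF-κB family enter the nucleus and switch on genes of cytokines, chemokines, adhesion molecules and of NF-κB's own inhibitors. The same receptor also activates the JNK, p38 and ERK kinases, which act through AP-1 and the serum response factor. SC-514 is a small molecule that competes with ATP at IKKβ.

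Totals of the 8 libraries were 1272625 to 1412226 counts at 25 µM and 942493 to 1323589 counts at 0 µM. Mitochondrial transcripts were 0.579 to 0.745% of the counts at 25 µM and 0.562 to 0.856% at 0 µM. Fibroblast markers such as Col1a1 and Vim summed to 10167 to 10435 CPM (counts scaled to a common library total) at 25 µM and 9717 to 10820 at 0 µM, with 1 of 12, Lum, at 0 in all 8 libraries. Markers of other cell types summed to 177 to 207 CPM at 25 µM and 153 to 173 at 0 µM, so the groups did not overlap. Of the 26 such markers in the table, 10 were at 0 in all 8 libraries, among them Cd3e of T cells, Adgre1 of macrophages, Epcam of epithelia and Alb of liver. Lpl, which encodes lipoprotein lipase, made up most of the sum, with 151 ± 14.6 CPM at 25 µM and 111 ± 8.30 CPM at 0 µM (SD, n = 4 each). Of the 6 such markers abundant enough to be tested, Lpl was higher and Cd14, a surface protein of monocytes, lower, with 12.9 ± 1.22 CPM at 25 µM and 22.3 ± 3.88 CPM at 0 µM (adjusted p = 0.0241), and their median log2 change was -0.31. Cd14 was not called by DESeq2 or with no filter, nor without any of 5 libraries, numbers 2 and 4 at 0 µM and 1, 2 and 4 at 25 µM (adjusted p = 0.0547 to 0.109). In such bulk RNA, fewer cells of a type and less RNA per cell cannot be told apart, and the part of these markers in the results was not tested.

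At 25 µM, 438 genes were higher and 601 lower than at 0 µM out of 10766 genes tested, at an adjusted p under 0.05 with edgeR's quasi-likelihood test. These were 4.07% and 5.58% of the genes tested, 9.65% together. The median absolute log2 change was 0.51 among the higher and 0.44 among the lower genes, and 37 higher and 63 lower genes changed by 1 or more on the log2 scale. In 330 of the higher genes (3.07% of all tested) and 457 of the lower genes (4.24%) the 4 libraries of one group all lay beyond the 4 of the other. Genes that TNF-α induces were taken from other libraries, those of 30 and 120 min at 0 µM against the unstimulated group, as genes with an adjusted p under 0.05 and a log2 change of at least 1 (at any size of change, 0.557% of all genes were higher at 30 min and 9.14% at 120 min). Of these 310 genes, 37 were higher and 48 lower at 25 µM, against 401 and 553 of the 10456 other genes. The median log2 change of the 310 genes was -0.04 and that of all genes tested was 0.001. Induced genes thus moved in both directions at this dose. Of the induced genes 11.9% were higher and 15.5% lower, against 4.07% and 5.58% of all genes tested. They were 8.45% of the higher and 7.99% of the lower genes, against 2.88% of all genes tested. Most of the genes that changed were thus not induced ones, as were most of the genes tested. Without library 2 at 25 µM the count was 639, DESeq2 called 678, and with RLE in place of TMM factors 563 of 1077 genes called were higher.

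**Figure D1:**
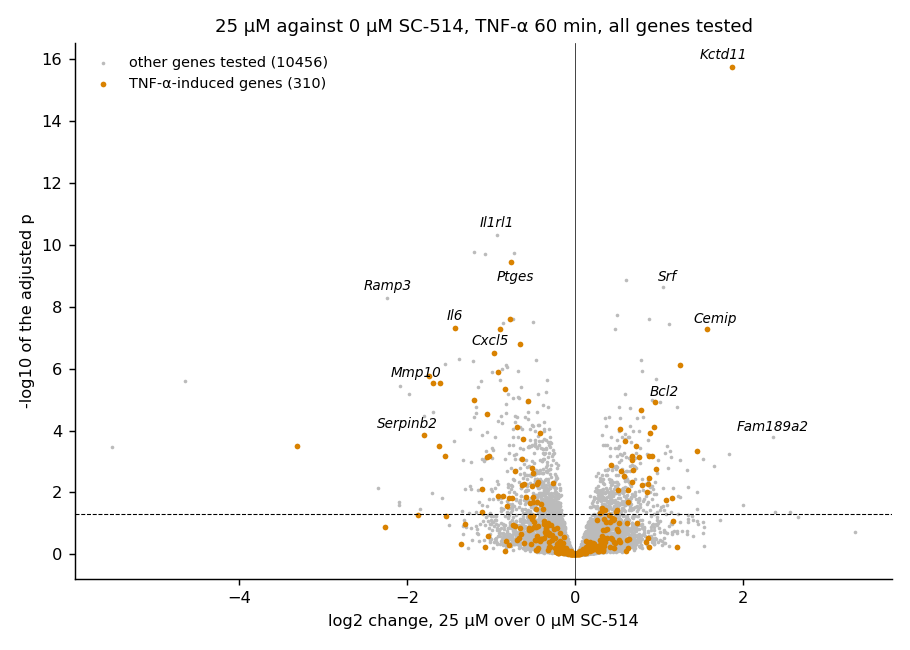
Each point is 1 of the 10766 genes tested, with the log2 change of 25 µM over 0 µM SC-514 on the x axis and -log10 of the adjusted p on the y axis; the dashed line marks an adjusted p of 0.05. Orange points are the 310 genes induced by TNF-α at 30 or 120 min in other libraries, and they lie on both sides, with 37 higher and 48 lower past the line.

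The gene lists used from here on were chosen with earlier results of these data known. Their shares are therefore descriptions and not independent support. Among NF-κB-driven cytokines and chemokines, 8 of the 23 genes tested fell and 0 rose at 25 µM, against 5.58% and 4.07% of all genes tested. The most abundant chemokines did not pass the test. The 8 were Il6, Cxcl5, Il1a, Ccl20, Il11, Ccl9, Tnfsf9 and Il33, and the median log2 change of the 23 genes was -0.32. Il6, the cytokine that drives the acute-phase response (chr5:30013114-30019981), had 120.2, 139, 88.1 and 97.9 CPM in the 25 µM libraries, against 263, 331, 316 and 294 CPM in the 0 µM libraries. The groups were far apart, with every 25 µM library below every 0 µM library. Its log2 change was -1.43 ± 0.20 (SE), with an adjusted p of 4.81e-08. Unstimulated cells held 11.7 ± 5.67 CPM, so cells at 25 µM retained 34.5% of the rise above that level. Cxcl5, a chemokine that attracts neutrophils, had 668, 535, 409.7 and 404 CPM at 25 µM and 904, 1150.5, 942 and 943 CPM at 0 µM (log2 change -0.97 ± 0.14, adjusted p = 3.12e-07). It retained 43.4% of its rise. Ccl20, which attracts cells bearing the receptor CCR6, had 482, 361, 309.5 and 238 CPM at 25 µM and 529, 528, 504 and 595 CPM at 0 µM. Its 25 µM libraries were widely spread but all lay below the 0 µM libraries (log2 change -0.63 ± 0.17, adjusted p = 0.00564). The alarmin gene Il1a was scarce, with 6.29, 4.40, 9.70 and 6.52 CPM at 25 µM and 28.5, 16.8, 15.9 and 16.7 CPM at 0 µM, and was without any count in the unstimulated libraries (log2 change -1.55 ± 0.34, adjusted p = 0.000653). The count of 8 was 4 without library 3 and 5 without library 4 at 25 µM, and DESeq2, which gave Il1a and Il33 no adjusted p, called 3. Ccl20 lost its call without library 4 at 25 µM (adjusted p = 0.0656), with DESeq2 (0.13) and with edgeR fitted to the 8 libraries alone (0.123).

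The other chemokines of the list did not pass the test in the model over all groups. Whether their changes differed from those of the chemokines that fell was not tested. Ccl2, the chief attractant of monocytes and the most abundant of them, had 3276, 3108, 3106 and 3205 CPM at 25 µM and 2818, 3268, 3329 and 3369 CPM at 0 µM, with overlapping groups and a log2 change of -0.01 ± 0.11 (adjusted p = 0.977). Its neighbour Ccl7 averaged 1620.5 ± 35.2 CPM at 25 µM and 1426 ± 36.5 CPM at 0 µM (adjusted p = 0.477). Cxcl1, a neutrophil attractant, had 1829.9, 1766, 1646 and 1584 CPM at 25 µM and 2085, 2069, 2201 and 2167 CPM at 0 µM. All 25 µM libraries were lower, yet the change of -0.32 ± 0.13 on the log2 scale did not pass the test (adjusted p = 0.114). Cxcl2, a related attractant, was likewise lower in all 25 µM libraries without passing it, with 84.2 ± 6.53 CPM at 25 µM and 115 ± 5.08 CPM at 0 µM (adjusted p = 0.125). When edgeR was fitted to the 8 libraries alone, Ccl7 passed as higher at 25 µM (log2 change 0.187, adjusted p = 0.0269). Cxcl1 and Cxcl2 passed as lower in that fit (log2 changes -0.318 and -0.443, adjusted p = 0.000226 and 0.00689). Of the 22 list genes tested there, 1 was higher and 8 were lower. The growth factor genes Lif and Csf2 had 829 ± 46.9 and 219.7 ± 30.2 CPM at 25 µM and 769.6 ± 17.3 and 251 ± 29.3 CPM at 0 µM, with adjusted p-values of 0.76 and 0.478. Il23a, a subunit of interleukin 23, had 32.5 ± 6.38 CPM at 25 µM and 46.6 ± 11 CPM at 0 µM (adjusted p = 0.153).

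**Figure D2:**
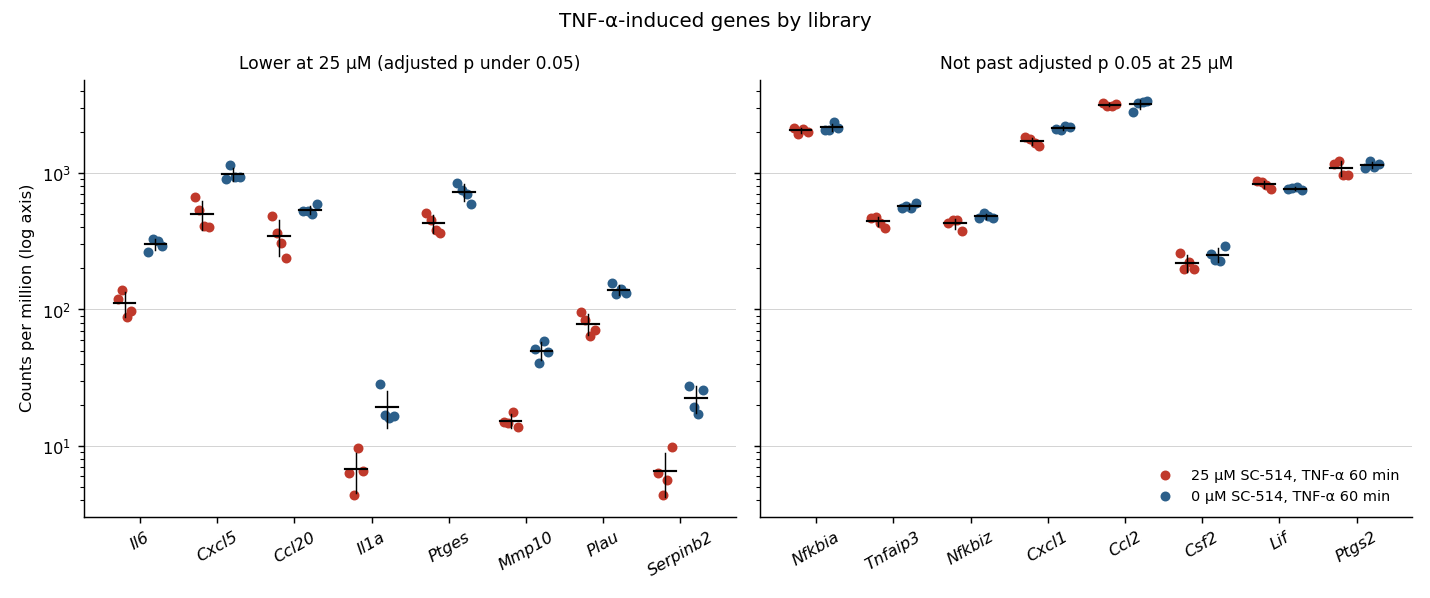
CPM (log axis) of 16 TNF-α-induced genes in each of the 4 libraries at 25 µM SC-514 (red, left) and the 4 at 0 µM (blue, right) after 60 min of TNF-α; the horizontal bars are means and the vertical bars 1 SD. In the left panel the groups do not overlap, while in the right panel the differences did not pass an adjusted p of 0.05, as for Nfkbia with 2053 and 2160.1 CPM on average.

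The promoters of 4 of these genes are shown because a match to the NF-κB consensus, in capitals, stands both in genes that fell, Il6 and Ccl20, and in genes that did not pass the test, Cxcl1 and Nfkbia. Each line gives the 150 bases before the RefSeq start site in the sense of the gene, on GRCm38.p6.
Il6 promoter (chr5:30012964-30013113, plus strand): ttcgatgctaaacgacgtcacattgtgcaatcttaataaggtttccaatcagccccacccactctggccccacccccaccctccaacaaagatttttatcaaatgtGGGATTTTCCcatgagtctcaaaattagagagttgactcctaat
Ccl20 promoter (chr1:83116616-83116765, plus strand): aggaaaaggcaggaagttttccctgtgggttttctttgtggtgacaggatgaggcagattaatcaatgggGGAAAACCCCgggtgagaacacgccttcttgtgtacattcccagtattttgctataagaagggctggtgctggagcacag
Cxcl1 promoter (chr5:90891095-90891244, plus strand): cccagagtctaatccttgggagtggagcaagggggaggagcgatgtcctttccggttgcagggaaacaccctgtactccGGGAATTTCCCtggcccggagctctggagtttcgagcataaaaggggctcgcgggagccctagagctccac
Nfkbia promoter (chr12:55492648-55492797, minus strand): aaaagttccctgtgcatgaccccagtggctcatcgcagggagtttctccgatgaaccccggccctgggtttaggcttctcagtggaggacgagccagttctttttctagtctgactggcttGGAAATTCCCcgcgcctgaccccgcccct
In Cxcl1 the capitals cover 2 overlapping matches. The consensus was searched on both strands of the 250 bases before the start site, in genes with 1 promoter in the RefSeq table, which were 6749 of the genes tested. It occurred in 3.90% of the 32851 promoters of the table and in 4.58% of the genes tested. Among the TNF-α-induced genes it occurred in 28 of 178 (15.7%). Within these it stood in 4 of 26 genes that fell at 25 µM (15.4%), 3 of 21 that rose (14.3%) and 21 of 131 that passed in neither direction (16.0%). These matches are descriptions of letters and not binding sites.

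Of 23 NF-κB-driven genes of enzymes, adhesion molecules and receptors, 9 fell and 0 rose, against 5.58% and 4.07% of all genes tested. Their median log2 change was -0.18. The 9 were Ptges, Mmp3, Mmp10, Plau, Pde4b, Saa3, Cd44, Sod2 and Plaur. Ptges, the inducible prostaglandin E synthase, had 505, 455, 384 and 365 CPM at 25 µM and 843, 749, 701 and 595 CPM at 0 µM. The groups did not overlap (log2 change -0.76 ± 0.09, adjusted p = 3.65e-10). By contrast Ptgs2, the inducible cyclooxygenase that acts upstream of it, had 1165, 1230.2, 966 and 972 CPM at 25 µM and 1097, 1235, 1115 and 1159 CPM at 0 µM, with overlapping groups (adjusted p = 0.793). Plau, the urokinase plasminogen activator, averaged 78.4 ± 13.8 CPM at 25 µM and 139.6 ± 12 CPM at 0 µM (log2 change -0.83 ± 0.14, adjusted p = 4.67e-06). Serpinb2, which encodes an inhibitor of urokinase, fell as well, to 6.29, 4.40, 5.66 and 9.79 CPM at 25 µM, against 27.7, 19.2, 17.1 and 25.9 CPM at 0 µM (log2 change -1.79 ± 0.36, adjusted p = 0.000136). The adhesion molecule genes Vcam1 and Icam1 did not pass the test. Vcam1 had 850.2 ± 125 CPM at 25 µM and 939.8 ± 71.6 CPM at 0 µM. Icam1 was low, with 17.2 ± 6.44 CPM at 25 µM and 17.9 ± 9.36 CPM at 0 µM (adjusted p = 0.444 for Vcam1 and 0.943 for Icam1). Has2, a hyaluronan synthase, averaged 134 ± 9.61 CPM at 25 µM and 178 ± 31.1 CPM at 0 µM (adjusted p = 0.0929), and passed the test without library 1 at 0 µM (adjusted p = 0.0474).

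Both stromelysin genes fell. Mmp10, stromelysin 2, had 14.9, 14.7, 17.8 and 13.9 CPM at 25 µM and 51.3, 40.7, 59.1 and 49 CPM at 0 µM, 3.22-fold lower in the fitted model (log2 change -1.69 ± 0.28, adjusted p = 2.92e-06). Mmp3, stromelysin 1, had 338, 349.9, 349 and 248 CPM at 25 µM and 558, 597, 569 and 474 CPM at 0 µM (log2 change -0.77 ± 0.11, adjusted p = 2.54e-08). On average Mmp3 had 321 ± 49.2 CPM at 25 µM and 323 ± 21.1 CPM in unstimulated cells, and Mmp10 15.3 ± 1.71 CPM at 25 µM and 20.9 ± 6.49 CPM in unstimulated cells. Their promoters are shown because each holds a match to the AP-1 motif (TGACTCA or TGAGTCA, in capitals) in the 150 bases before the start site.
Mmp3 promoter (chr9:7445672-7445821, plus strand): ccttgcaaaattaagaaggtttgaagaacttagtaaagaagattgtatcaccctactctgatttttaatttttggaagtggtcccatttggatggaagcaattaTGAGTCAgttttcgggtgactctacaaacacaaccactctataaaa
Mmp10 promoter (chr9:7502192-7502341, plus strand): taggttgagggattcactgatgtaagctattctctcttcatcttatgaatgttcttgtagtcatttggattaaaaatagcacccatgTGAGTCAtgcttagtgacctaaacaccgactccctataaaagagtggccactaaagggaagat
The motif occurred in the 250 bases before the start site in 4.46% of all promoters of the table and in 2.77% of the genes tested. Among the induced genes it occurred in 13 of 178 (7.30%). These were 4 of 26 that fell (15.4%), 1 of 21 that rose (4.76%) and 8 of 131 that passed in neither direction (6.11%). The 4 include Mmp3 and Mmp10. The difference between these shares was not tested.

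Of 20 genes of the NF-κB system itself, 2 rose, 2 fell and 16 did not pass the test. Among all genes tested, 4.07% were higher and 5.58% lower. Nfkbia, which encodes IκBα, had 2154, 1939, 2116 and 2004 CPM at 25 µM and 2061, 2084, 2346 and 2149 CPM at 0 µM, while unstimulated cells held 140.4 ± 9.48 CPM. The groups overlapped, and the log2 change was -0.07 ± 0.12 (adjusted p = 0.789). Tnfaip3, which encodes the ubiquitin-editing inhibitor A20, was lower in all 25 µM libraries, with 468, 474, 432 and 398 CPM at 25 µM and 553, 571, 553 and 606 CPM at 0 µM, but did not pass the test (log2 change -0.37 ± 0.14, adjusted p = 0.0818) in the model over all groups. It passed under 3 alternatives, among them edgeR fitted to the 8 libraries alone (adjusted p = 0.000617). Nfkbiz and Nfkbie, which encode further IκB family proteins, had adjusted p-values of 0.368 and 0.583. The 2 genes that rose encode the subunits of the non-canonical dimer. Nfkb2 had 236, 220.1, 194 and 204 CPM at 25 µM and 173, 135, 149 and 133 CPM at 0 µM, and Relb had 119 ± 8.65 CPM at 25 µM and 78.7 ± 5.39 CPM at 0 µM (log2 changes 0.53 ± 0.10 and 0.59 ± 0.12). The 2 that fell were Traf1, an adaptor of TNF receptors, and Tnip1, a partner of A20, with log2 changes of -0.54 ± 0.17 and -0.40 ± 0.13 (adjusted p = 0.0223 and 0.0243). Neither was called by DESeq2, nor without library 1 or 2 at 0 µM or library 4 at 25 µM (adjusted p = 0.0799, 0.104 and 0.207 for Traf1, and 0.108, 0.154 and 0.13 for Tnip1). Tnip1 was also not called without library 2 at 25 µM (adjusted p = 0.062). With edgeR on TMM factors and with DESeq2, 0 of the 19 genes of the IKK complex and its upstream adaptors passed the test. Of these, 3 had an unadjusted p under 0.05 with edgeR. With RLE factors 1 was higher, and 1 was higher without library 3 at 0 µM. Ikbkb, which encodes IKKβ itself, had 42.4, 46.2, 49.3 and 29.4 CPM at 25 µM and 45.6, 48.7, 34.1 and 42.6 CPM at 0 µM (log2 change -0.05 ± 0.16, adjusted p = 0.923).

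Of 47 immediate early and serum response genes, 8 rose and 3 fell at 25 µM, against 4.07% and 5.58% of all genes tested. Their median log2 change was 0.07. Those that rose were Srf, Plk2, Dusp5, Ccn2, Dusp4, Atf3, Klf4 and Phlda1, and those that fell were the orphan nuclear receptor genes Nr4a1, Nr4a2 and Nr4a3. Srf, the serum response factor, had 133, 112, 142 and 138 CPM at 25 µM and 86.3, 41.5, 67.1 and 59.2 CPM at 0 µM. Each 25 µM library exceeded the highest 0 µM library (log2 change 1.05 ± 0.14, adjusted p = 2.29e-09). Dusp5, a nuclear phosphatase that inactivates ERK, had 354, 376, 431 and 433 CPM at 25 µM and 279.9, 189, 273 and 225 CPM at 0 µM (log2 change 0.72 ± 0.15, adjusted p = 0.000323). Spry4 and Spry1, which encode inhibitors of receptor tyrosine kinase signalling to ERK, rose by 1.45 and 1.52 on the log2 scale, from low levels. Spry4 had 24.4, 23.5, 10.5 and 15.5 CPM at 25 µM and 5.70, 10.4, 3.41 and 6.48 CPM at 0 µM. Ccn2, a matricellular growth factor, rose to 121 ± 30.2 CPM at 25 µM, against 54.9 ± 22.6 CPM at 0 µM. Nr4a2 fell to 13.4, 12.5, 3.23 and 5.71 CPM at 25 µM, against 26, 40.7, 29.6 and 21.3 CPM at 0 µM (log2 change -1.74 ± 0.28, adjusted p = 1.73e-06), close to the 7.34 ± 2.11 CPM of unstimulated cells. The best known members did not pass the test at 60 min. Fos had 85.1 ± 3.05 CPM at 25 µM and 93.4 ± 14.6 CPM at 0 µM, and Egr1 756 ± 45.7 CPM at 25 µM and 778 ± 77.5 CPM at 0 µM, with adjusted p-values of 0.811 and 0.943. Without library 2 at 0 µM, 5 genes of the list rose in place of 8. The promoters of Srf and Dusp5 are shown because each holds 2 matches to the CArG box, the motif of the serum response factor, in capitals. In Dusp5 the matches adjoin.
Srf promoter (chr17:46556163-46556312, minus strand): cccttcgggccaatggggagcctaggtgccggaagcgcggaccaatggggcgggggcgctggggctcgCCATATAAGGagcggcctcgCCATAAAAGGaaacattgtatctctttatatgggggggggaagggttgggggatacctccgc
Dusp5 promoter (chr19:53528995-53529144, plus strand): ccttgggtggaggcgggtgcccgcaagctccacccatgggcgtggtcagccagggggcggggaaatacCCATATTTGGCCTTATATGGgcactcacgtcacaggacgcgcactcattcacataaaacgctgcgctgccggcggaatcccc
A CArG box was found in the 250 bases before the start site of 8 of 263 genes that rose (3.04%), 6 of 352 genes that fell (1.7%), 1.04% of the genes tested and 1.47% of all promoters of the table. Among the induced genes it stood in 1 of 21 that rose, 0 of 26 that fell and 2 of 131 that passed in neither direction. The difference between these shares was not tested, and the matches describe letters and not binding sites.

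The gene with the smallest p in either direction was Kctd11 (chr11:69878261-69881406), which encodes a substrate adaptor of a cullin ubiquitin ligase. It had 155, 111, 172 and 180.2 CPM at 25 µM and 56.1, 32.7, 44.4 and 36.1 CPM at 0 µM, 3.63-fold higher in the fitted model (log2 change 1.86 ± 0.17, adjusted p = 1.85e-16). Unstimulated cells held 15.4 ± 4.42 CPM, so the 25 µM libraries lay further above them than the 0 µM libraries did. Cemip, whose product takes part in breaking down hyaluronan, had 36.9, 37.4, 48.5 and 38.3 CPM at 25 µM and 13, 17.6, 10.2 and 12 CPM at 0 µM (log2 change 1.57 ± 0.23, adjusted p = 5.4e-08). Bcl2, which protects cells from apoptosis, rose to 53.4 ± 9.31 CPM at 25 µM, against 26.6 ± 2.79 CPM at 0 µM (adjusted p = 1.24e-05). It was the 1 of 11 anti-apoptotic genes to rise, and Pim1, a kinase gene with 234 ± 52.6 CPM at 25 µM and 360.3 ± 34.9 CPM at 0 µM, was the 1 to fall. Among all genes tested, 4.07% rose and 5.58% fell. Ppp3ca, the catalytic subunit of calcineurin, had 496 ± 10.9 CPM at 25 µM and 355 ± 34.4 CPM at 0 µM (adjusted p = 5.34e-08).

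Several of the genes that fell most were not induced by TNF-α. Ramp3 (chr11:6658521-6677475), which encodes a partner protein of the calcitonin receptor-like receptor, had 17.3, 21.3, 26.7 and 23.6 CPM at 25 µM and 82.2, 99, 139 and 105 CPM at 0 µM, 4.71-fold lower in the fitted model (log2 change -2.23 ± 0.29, adjusted p = 5.28e-09). Unstimulated cells held 97.4 ± 8.45 CPM, in the range of the 0 µM libraries. Il1rl1, the receptor of interleukin 33, was much more abundant, with 955, 1022, 869.5 and 854 CPM at 25 µM and 1803, 1843, 1703 and 1679 CPM at 0 µM (log2 change -0.93 ± 0.10, adjusted p = 4.86e-11). Its ligand Il33 was scarce, with 2.94 ± 0.351 CPM at 25 µM and 7.56 ± 3.93 CPM at 0 µM (adjusted p = 0.04), and it lost its call when any library but number 1 at 0 µM was left out (adjusted p = 0.0549 to 0.321). Nmnat2, an enzyme of NAD synthesis, had 17.3, 22.7, 18.6 and 18.8 CPM at 25 µM and 52.1, 55.1, 67.1 and 54.6 CPM at 0 µM. The tubulin gene Tubb2b had 17.3, 16.9, 17.8 and 15.5 CPM at 25 µM and 48, 40.7, 44.4 and 42.6 CPM at 0 µM. Both were low in every 25 µM library, with log2 changes of -1.54 ± 0.24 and -1.38 ± 0.21. Nes, which encodes nestin, fell to 7.04 ± 1.26 CPM at 25 µM, against 22.7 ± 8.30 CPM at 0 µM. Prl2c3 of the proliferin family had 74.5 ± 11.8 CPM at 25 µM and 171 ± 20.3 CPM at 0 µM, but it has near-identical paralogs between which the counting could split reads.

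Of 15 heat shock genes 7 fell and 0 rose, against 5.58% and 4.07% of all genes tested. Their median log2 change was -0.19. Hsph1, a chaperone of the HSP110 family, had 183, 196, 178 and 182 CPM at 25 µM and 325, 324, 326 and 246 CPM at 0 µM. The lowest 0 µM library still lay above all 25 µM libraries (log2 change -0.72 ± 0.09, adjusted p = 1.83e-10). The constitutive chaperone gene Hspa8 changed less, with 886 ± 88.7 CPM at 25 µM and 1040.1 ± 79.4 CPM at 0 µM (log2 change -0.23 ± 0.07, adjusted p = 0.0109). It was not called without library 3 at 0 µM (adjusted p = 0.092) or library 2 at 25 µM (0.174). The count of 7 was 3 without library 2 of either group, 4 without library 1 at 25 µM and 3 with DESeq2.

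The remaining lists follow here, and the shares among all genes tested were 4.07% higher and 5.58% lower. Sterol synthesis genes had 3 of 24 lower and 0 higher, among them Hmgcs1 of the mevalonate pathway with 139 ± 26.7 CPM at 25 µM and 223 ± 15.6 CPM at 0 µM. This count was 2 without library 2 at 0 µM and 5 without library 2 at 25 µM. NRF2 antioxidant genes had 4 of 24 lower and 0 higher, with Abcc1, a glutathione conjugate exporter, at 118 ± 13.5 CPM at 25 µM and 159 ± 15.8 CPM at 0 µM, and without library 4 at 0 µM 1 was lower. Hypoxia and glycolysis genes had 4 of 20 lower and 0 higher, among them the glycolytic gene Gapdh with 247 ± 19.7 CPM at 25 µM and 304 ± 34.4 CPM at 0 µM. DESeq2 called 0 of these 20, and 0 to 2 were lower without 1 of 7 libraries, all but number 3 at 0 µM. Gapdh was not called without library 2 at 0 µM (adjusted p = 0.079) or library 2 at 25 µM (0.0771). Integrated stress response genes had 3 of 24 higher and 0 lower, and the endoplasmic reticulum gene Herpud1 had 90.5 ± 12.9 CPM at 25 µM and 56.3 ± 4.37 CPM at 0 µM (log2 change 0.69 ± 0.16). Of 25 matrix and contractile genes, 3 were higher and 2 lower, with the matrix protein gene Tnc lower at 365 ± 28 CPM at 25 µM and 597 ± 69.5 CPM at 0 µM, and the fibrillar collagen gene Col3a1 higher at 274 ± 29.3 CPM at 25 µM and 207 ± 12.3 CPM at 0 µM. Col3a1 was not called without library 1 at 0 µM or libraries 2 or 3 at 25 µM (adjusted p = 0.0758, 0.0672 and 0.0958), and without library 3 at 25 µM 1 gene of the list was higher. The count of lower genes was 1 without library 3 at 0 µM and 1 without library 2 at 25 µM. Of 16 p53 targets, 3 rose and 1 fell, and the count of lower ones was 0 to 2 when 1 library was left out. With edgeR in the main model and with DESeq2, 0 genes passed the test among 32 interferon-stimulated genes, 29 cell cycle genes and 4 AHR targets. The background was 9.65% of all genes, and 3, 2 and 1 of them had an unadjusted p under 0.05 with edgeR. With no filter, with the library number as a block and with edgeR on the 8 libraries alone, 1 AHR target was lower. Of the cell cycle genes, 1 was higher with no filter, and 1 was higher and 1 lower with the block. Leaving out library 4 at 0 µM, or 1 or 4 at 25 µM, gave 1 lower cell cycle gene.

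**Figure D3:**
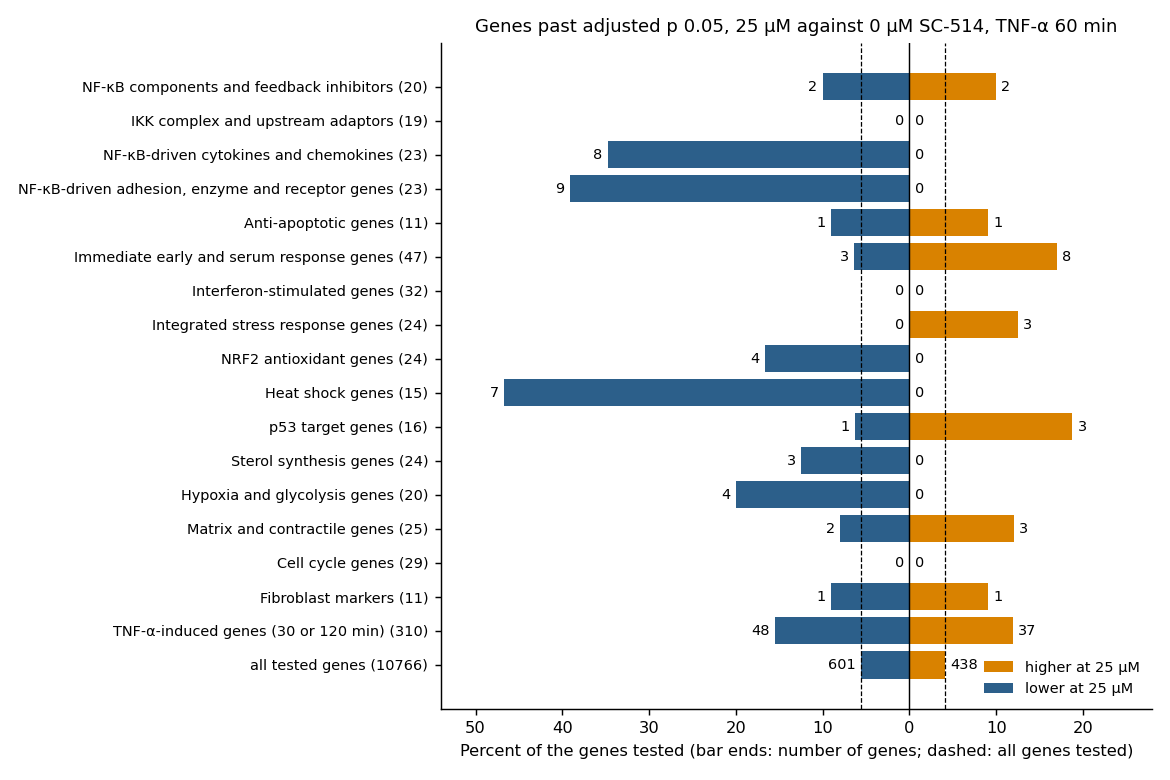
Percent of the tested genes of each list that were higher (orange, right) or lower (blue, left) at 25 µM than at 0 µM SC-514 with an adjusted p under 0.05; the number of genes tested is in brackets and the number past the threshold stands at each bar. The dashed lines are the shares of all genes tested, 4.07% higher and 5.58% lower, and heat shock genes (7 of 15) and NF-κB-driven enzyme and adhesion genes (9 of 23) extend furthest to the left.

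The dose series at 60 min placed the 25 µM libraries between 0 and 50 µM for part of the genes and near the end of the range for others. The contrasts of 25, 50 and 100 µM share the 0 µM libraries, and their values are given side by side. With 50 µM, 849 genes were higher and 1129 lower than at 0 µM (7.89% and 10.5% of those tested, 18.4% together), and with 100 µM 896 and 1468 (8.32% and 13.6%, 22% together). Which direction held more genes depended on the scaling, since with RLE factors 1062 were higher and 963 lower at 50 µM, and 1396 higher and 1077 lower at 100 µM. Of the 310 TNF-α-induced genes, 48 were lower at 25 µM, 104 at 50 µM and 165 at 100 µM, and 37, 30 and 23 were higher. Their median log2 changes were -0.04, -0.30 and -0.57, while those of all genes tested were 0.001, -0.004 and 0.007. With RLE factors 46, 100.0 and 155 of the 310 were lower and 41, 32 and 32 higher.

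Il6 was graded over the whole range. It averaged 301 ± 29.5 CPM at 0 µM, 111 ± 23 at 25 µM, 57.2 ± 28.4 at 50 µM and 12.1 ± 5.17 at 100 µM (SD, n = 4 each). It retained 34.5%, 15.7% and 0.140% of its rise over unstimulated cells at 25, 50 and 100 µM. The last value cannot be told from 0, since unstimulated cells averaged 11.7 CPM. Ptges retained 48.5%, 28.3% and 1.33% at the same doses, Ccl20 64.4%, 44.2% and 23.4%, and Pim1 60.1%, 45.3% and 22.8%. Other induced genes averaged below unstimulated cells at 100 µM, with -12.2% for Plau, -14.9% for Hilpda and -61.5% for Mmp3. The unstimulated cells had no compound, so these shares do not allow for what it does by itself. Several genes that had not passed the test at 25 µM passed it at 100 µM. Has2 averaged 178 ± 31.1 CPM at 0 µM, 134 ± 9.61 at 25 µM, 78.7 ± 19.7 at 50 µM and 24.5 ± 2.42 at 100 µM. For Tnfaip3 the log2 changes were -0.37, -0.71 and -1.51 at 25, 50 and 100 µM, for Lif 0.11, -0.32 and -0.91, for Ptgs2 -0.09, -0.54 and -1.09, and for Icam1 -0.06, -1.13 and -3.60. These 4 genes and Has2 passed the test at 100 µM. Nfkbia did not pass it at any dose, with log2 changes of -0.07, -0.08 and -0.25.

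**Figure D4:**
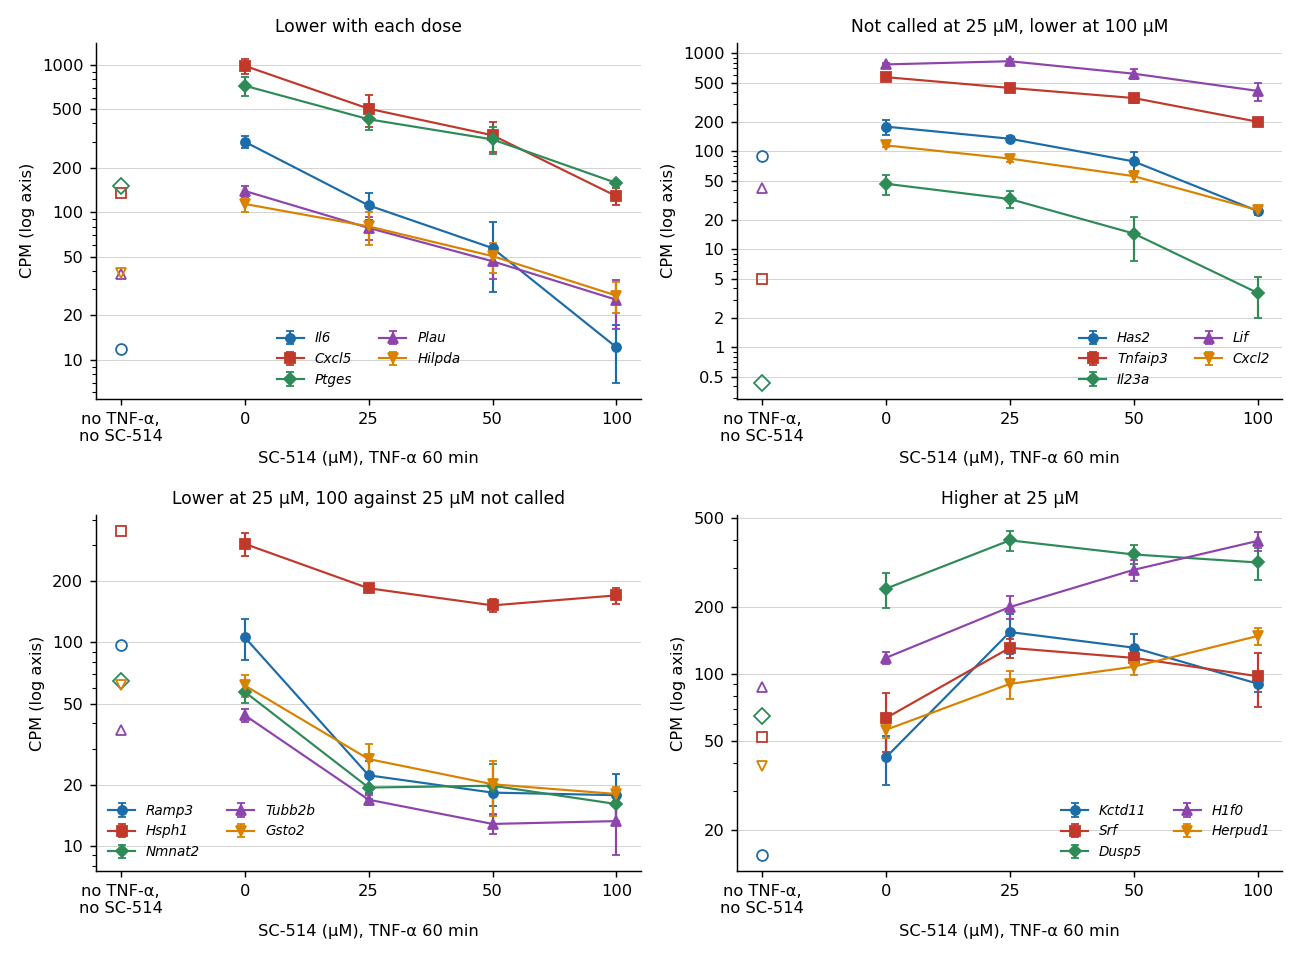
Mean CPM with 1 SD over 4 libraries (log axis) at 0, 25, 50 and 100 µM SC-514 after 60 min of TNF-α, with the unstimulated mean as open symbols at the left of each panel (Cxcl2, at 0 there, has none) and doses drawn at even steps. Il6 falls at each dose, Has2 falls mainly at 50 and 100 µM, Ramp3 is low at 25 µM and similar at 50 and 100 µM, and Kctd11 is highest at 25 µM.

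Tested directly, 222 genes were higher and 611 lower at 100 than at 25 µM (2.06% and 5.68% of those tested, 7.74% together). With RLE factors 326 were higher and 470 lower. Among the 310 TNF-α-induced genes 7 were higher and 142 lower, and 11 and 132 with RLE factors. Il6 was lower at 100 than at 25 µM, with a log2 change of -3.13 ± 0.30 (adjusted p = 5.73e-16), and so were Has2 with -2.45 ± 0.20 (adjusted p = 9.02e-20) and Il23a with -3.20 ± 0.34 (adjusted p = 2.58e-14). Several genes that fell at 25 µM without being induced by TNF-α did not pass this test. Ramp3 had 17.7 ± 4.79 CPM at 100 µM and 22.2 ± 3.96 CPM at 25 µM (log2 change -0.29 ± 0.37, adjusted p = 0.753), and for Nmnat2, Tubb2b, Gsto2 and Hsph1 the adjusted p-values were 0.641, 0.464, 0.0954 and 0.552. Il1rl1 passed it, with a log2 change of -0.91 ± 0.11. Kctd11 was lower at 100 than at 25 µM, with 90.6 ± 7.30 and 154 ± 31 CPM (adjusted p = 2.01e-05). Genes higher at 100 than at 25 µM included the linker histone genes H1f0 (396 ± 38.3 and 199.9 ± 23.2 CPM) and Hist1h1c (285 ± 46 and 85.9 ± 34.4 CPM), Mknk2, a kinase acting on the translation factor eIF4E (124 ± 15 and 54.6 ± 3.85 CPM), and Herpud1 (148 ± 13 and 90.5 ± 12.9 CPM).

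Cells that received TNF-α at 25 µM also differed from unstimulated cells. Against that group, 904 genes were higher and 704 lower (8.4% and 6.54% of those tested, 14.9% together), and without the compound 447 and 135 (4.15% and 1.25%, 5.41% together). With RLE factors these counts were 798 and 831 at 25 µM, and 339 and 239 at 0 µM, so the balance of directions depended on the scaling. The 2 contrasts share the unstimulated libraries, and the first also contains what the compound does by itself, for which there is no group. Il6 was 3.25 ± 0.32 above unstimulated cells on the log2 scale at 25 µM and 4.68 ± 0.29 at 0 µM. For Nfkbia these values were 3.87 ± 0.14 and 3.94 ± 0.14, and for Cxcl5 1.90 ± 0.17 and 2.86 ± 0.16. Dusp5 stood 2.63 ± 0.18 above unstimulated cells at 25 µM and 1.90 ± 0.19 at 0 µM.

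The same contrast at other times of TNF-α uses other libraries, so that the genes can be compared between them. Of the 438 genes that were higher at 60 min, 174 were also higher at 15 min (39.7% of the 438 and 42.8% of the 407 called there), 169 at 30 min (38.6%, and 41.7% of 405), 158 at 120 min (36.1%, and 36.4% of 434) and 15 at 360 min (3.42%, and 29.4% of 51). Of the 601 lower genes, 247 were also lower at 15 min (41.1%, and 56.1% of 440), 277 at 30 min (46.1%, and 55.5% of 499), 250 at 120 min (41.6%, and 48.4% of 516) and 138 at 360 min (23.0%, and 56.8% of 243). In percent of the genes tested, 3.78, 3.76, 4.03 and 0.474 were higher, 4.09, 4.63, 4.79 and 2.26 were lower and 7.87, 8.4, 8.82 and 2.73 were called in either direction at 15, 30, 120 and 360 min. A test of the 60 min change against the mean of the other 4 times called 0 genes with edgeR, while 669 had an unadjusted p under 0.05, and DESeq2 also called 0. At 360 min RLE factors gave 89 higher and 167 lower genes, and the count of 294 was 192 without library 3 at 0 µM and 194 without library 3 at 25 µM.

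Ramp3 was lower at 25 µM at every time, with log2 changes of -2.70, -2.33, -2.23, -1.68 and -0.84 at 15, 30, 60, 120 and 360 min, each past the threshold. Kctd11 had 1.97, 1.61, 1.86 and 1.72 up to 120 min and 0.37 at 360 min, where it did not pass the test. The stromelysin gene Mmp3 had log2 changes of -0.45, -0.62, -0.77, -1.0 and -1.23 at the same times. Il6 fell at 30, 60 and 360 min, but at 120 min it had 257 ± 17.6 CPM at 25 µM and 246 ± 52.7 CPM at 0 µM (log2 change 0.05 ± 0.19, adjusted p = 0.918). Ccl20 was higher at 25 µM at 15 min, with 14.1 ± 5.44 CPM at 25 µM and 2.36 ± 1.48 CPM at 0 µM (adjusted p = 0.00788), and lower at 30 and 60 min. The immediate early genes Egr1 and Junb, which had not passed the test at 60 min, were higher at 25 µM at 15 and 120 min. Egr1 had 200.5 ± 34.1 CPM at 25 µM and 85.6 ± 19.9 CPM at 0 µM at 15 min, and 289.6 ± 52.7 CPM at 25 µM and 74.4 ± 8.07 CPM at 0 µM at 120 min (adjusted p = 0.000136 and 1.18e-09). Junb had log2 changes of 0.85 at 15 min and 1.34 at 120 min, and Fos of 2.55 at 120 min. For none of these genes did the change at 60 min differ from the mean of the other times past an adjusted p of 0.05. That test averages the other times, so it cannot decide whether a change at 15 or 120 min differed from that at 60 min.

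**Figure D5:**
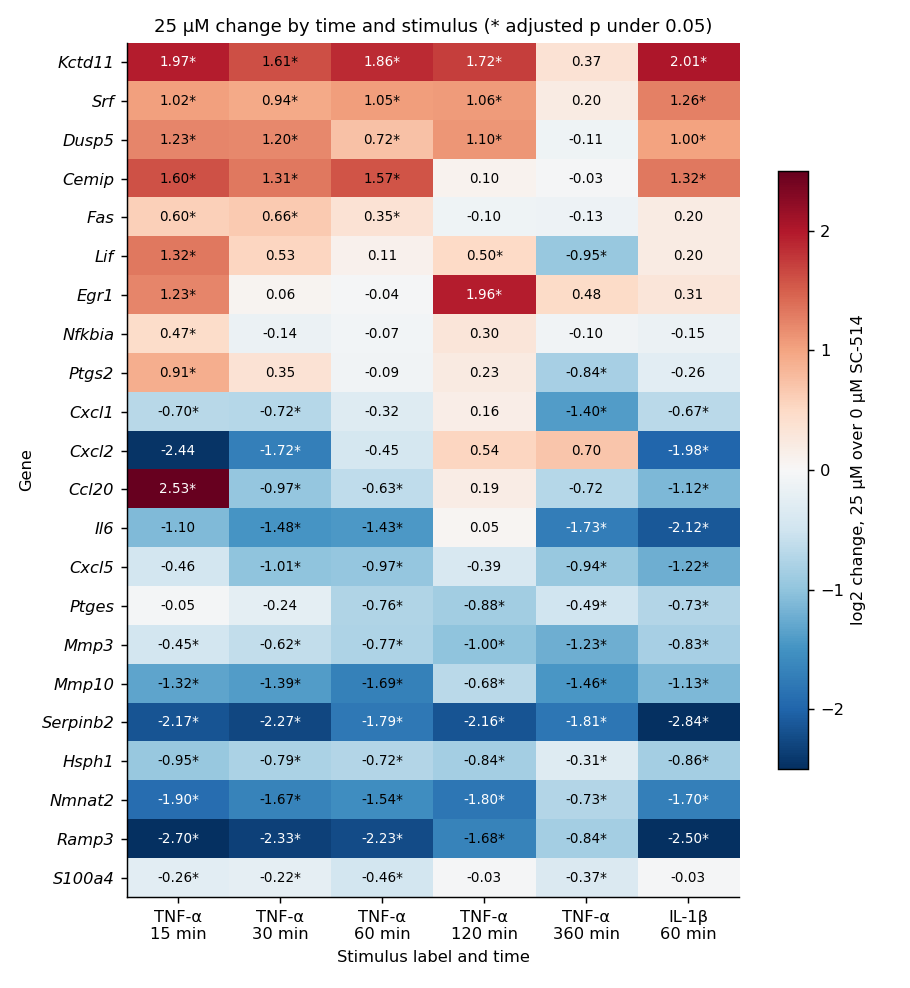
Log2 change of 25 µM over 0 µM SC-514 for 22 genes (rows) at 15, 30, 60, 120 and 360 min of TNF-α and at 60 min of IL-1β (columns), in red where higher and in blue where lower at 25 µM; an asterisk marks an adjusted p under 0.05. Ramp3, Serpinb2 and Mmp10 are lower in all 6 columns, and Il6 is near 0 at 120 min of TNF-α.

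Under IL-1β at 60 min, 618 genes were higher and 685 lower at 25 µM (5.74% and 6.36% of those tested, 12.1% together). They included 221 of the 438 genes higher under TNF-α (50.5%, and 35.8% of the 618) and 318 of the 601 lower ones (52.9%, and 46.4% of the 685). The 2 effects share no library, and their difference passed the test in 25 genes (0.232% of those tested), 8 with a higher and 17 with a lower value under TNF-α (0.0743% and 0.158%). This count rests on single libraries. It was 9, 13, 2 and 14 without libraries 1, 2, 3 and 4 of IL-1β at 25 µM, and 1 and 5 without libraries 1 and 4 of IL-1β at 0 µM. It was 1 and 4 without libraries 2 and 3 of TNF-α at 25 µM, and 8, 6 and 2 without libraries 2, 3 and 4 of TNF-α at 0 µM. Of the 8, 2 are TNF-α-induced. Cxcl2 did not pass the test under TNF-α, with 89.6, 88, 84 and 75 CPM at 25 µM and 115, 116, 121 and 108 CPM at 0 µM, while under IL-1β it had 18.1, 6.87, 6.44 and 8.05 CPM at 25 µM and 53.9, 28.8, 36.5 and 33 CPM at 0 µM. The log2 changes were -0.45 ± 0.19 and -1.98 ± 0.28, and their difference was 1.54 ± 0.34 (adjusted p = 0.0278). Il23a had 3.14, 1.37, 3.22 and 2.93 CPM at 25 µM and 14.9, 14.4, 20.7 and 10.3 CPM at 0 µM under IL-1β, a log2 change of -2.46 ± 0.41, against -0.52 ± 0.23 under TNF-α (difference 1.94 ± 0.48, adjusted p = 0.0453). S100a4, a calcium-binding protein used as a fibroblast marker, fell under TNF-α, with 595 ± 63.7 CPM at 25 µM and 819 ± 107 CPM at 0 µM. Under IL-1β it had 706 ± 24.2 CPM at 25 µM and 721 ± 40.1 CPM at 0 µM (difference -0.43 ± 0.10, adjusted p = 0.0331). Gapdh and the translation elongation factor genes Eef1g and Eef2 also had a lower value under TNF-α, with differences of -0.54, -0.48 and -0.36. Over the 16 fits that each leave out 1 library, the difference stayed past the threshold in 14 for Eef1g, 11 for Gapdh, 9 for Cxcl2, 7 for S100a4, 6 for Eef2 and 4 for Il23a, with adjusted p-values of up to 0.0605, 0.112, 0.119, 0.272, 0.156 and 0.194. For Il6 the changes were -1.43 ± 0.20 under TNF-α and -2.12 ± 0.22 under IL-1β, and the difference did not pass the test (adjusted p = 0.489).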

How the data were processed

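The authors deposited whole-number read counts, not normalized, of 22070 genes in 164 libraries, 4 in each of 41 groups. Bowtie2 and the GRCm38 (mm10) genome are named in the submitters' processing notes. Which program and annotation gave the counts is not given in the sources used here. Symbols and coordinates are those of GENCODE M21 (GRCm38), in which 21858 identifiers were found and 212 were not.

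Genes that passed edgeR's filterByExpr (10766) were scaled with TMM factors, and 1 robust quasi-likelihood model over all 41 groups was fitted with edgeR 4.0.16 in R 4.3.3. It had 123 residual degrees of freedom and a biological coefficient of variation of 0.0799. Tests were two-sided, with Benjamini-Hochberg adjustment within each comparison and a threshold of 0.05. CPM are edgeR's, on the total of tested genes times its TMM factor, with SD over 4 libraries. The summed CPM of cell type markers are the exception, scaled to each library's total counts without a TMM factor. In the 8 libraries 3 counts equalled 2.12 to 3.18 CPM before TMM scaling. Members and gene lists were chosen with earlier results of these data known.

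Genes were named by a rule: groups that do not overlap, an adjusted p under 0.05, a mean of 5 CPM or more in either group, and the largest changes (20 falling and 10 rising), without predicted, ribosomal protein and mitochondrial genes. Added to these were the 4 members of smallest p in each of 18 lists, the 5 of smallest p in each direction of the other comparisons, and a fixed set of TNF-α response genes. List members given without a value stand outside this rule. Alternatives were RLE factors, no filter, DESeq2 1.42.0, only the groups of a comparison, leaving out the 2 shallow libraries of the series (under 100000 counts), the library number as a block, and leaving out each library in turn. Promoter sequences are from RefSeq, on GRCm38.p6. Libraries of a group differed by more than sampling noise (chi-squared over degrees of freedom 1.17 to 2.26).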

Additional observations from a re-analysis of the deposited data

Results flagged for a closer look

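Of 144 groups of 4 libraries checked, 9 had 1 library far from the other 3 by Dixon's criterion, and chance gives about 1 in 20. At 25 µM, Cemip was 48.5 CPM in library 3, against 36.9 to 38.3 in the others, and Junb 743 CPM in library 1, against 651 to 663. Rtp4 was 35.6 CPM in library 3 at 25 µM, against 51.1 to 53 in the others. Mmp3 was 248 CPM in library 4 at 25 µM, against 338 to 349.9 in the others, and S100a4 500.3 CPM in library 2, against 617 to 639. At 0 µM, Cxcl5 was 1150.5 CPM in library 2, against 904 to 943 in the others, and Il1a 28.5 CPM in library 1, against 15.9 to 16.8. Hmgcs1 and Hsph1 were low in library 4 at 0 µM, with 199.8 CPM for Hmgcs1 (228 to 233 in the others) and 246 CPM for Hsph1 (324 to 326 in the others).

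In 6 of the genes given above, the change at 25 µM differed between TNF-α and IL-1β by the interaction test. The log2 change under TNF-α minus that under IL-1β was 1.54 for Cxcl2 and 1.94 for Il23a. It was -0.43 for S100a4, -0.48 for Eef1g, -0.54 for Gapdh and -0.36 for Eef2.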

How the results depend on the processing

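The 25 against 0 µM change of the 91 named genes past the threshold kept its sign under every alternative run, 58 stayed past it in all of them and 33 lost it in at least 1. Of 55 named genes not past it, 22 passed in at least 1 alternative. DESeq2 gave 16 named genes no adjusted p, and these are left out. Of the changes at 25 µM given above, those of Ccn2, Ccl20 and Traf1 lost their calls with edgeR on the 8 libraries alone (adjusted p = 0.0762, 0.123 and 0.0507), and Cxcl1, Has2 and Tnfaip3 gained one without a filter (adjusted p = 0.000454, 0.0119 and 0.00319). RLE factors moved the median log2 change of all genes to 0.03 at 25 µM and 0.08 at 100 µM. Depth limits scarce genes such as Il1a.

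With DESeq2 the number of genes called was 678 for 25 against 0 µM, 525 for 100 against 25 µM, 862 under IL-1β, 591 at 30 min and 144 at 360 min. Without a filter 4 interferon-stimulated genes were lower and 2 higher at 25 µM, 3 heat shock and 2 hypoxia and glycolysis genes were lower, and 23 genes differed between 60 min and the other times. With edgeR on only the groups compared, 541 genes differed between 100 and 25 µM and 2 between 60 min and the other times.

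Same-numbered libraries of the 25 and 0 µM groups were not treated as paired, since the labels do not say that the number pairs them. After removal of group means their values correlated weakly, at 0.114, 0.0563, 0.0710 and 0.0937 for numbers 1 to 4. Correlations between unlike numbers were mostly negative. They ran from -0.142 (4 at 25 µM with 1 at 0 µM) to 0.162 (2 at 25 µM with 1 at 0 µM). Whether the number pairs libraries is thus not settled. With the library number as a block, 1343 genes were called for 25 against 0 µM, 79 for TNF-α against IL-1β, 2 for 60 min against the other times and 448 at 360 min. Sterol synthesis genes then had 7 lower in place of 3, and Cxcl2 and Tnfaip3 passed the test (adjusted p = 0.0463 and 0.0313).

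Leaving out 1 library at a time gave 639 to 974 genes for 25, 1533 to 1807 for 50 and 1927 to 2150 for 100 against 0 µM, and 634 to 754 for 100 against 25 µM. It gave 1 to 35 for TNF-α against IL-1β, 0 in each of 40 fits for 60 min against the other times, and 982 to 1140 under IL-1β. At 15, 30, 120 and 360 min the ranges were 645 to 788, 645 to 814, 733 to 835 and 192 to 274. Against unstimulated cells they were 1324 to 1463 at 25 µM and 405 to 522 at 0 µM, and 40 to 48 of the TNF-α-induced genes were lower at 25 µM. The alternatives under IL-1β, at the other times, for the TNF-α-induced genes and for the interferon-stimulated genes at 15 min were added after the data had been seen.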

Other observations

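Interferon-stimulated genes stood apart in 1 library of another time. At 15 min of TNF-α, 10 of 32 were called lower at 25 µM (median log2 change -0.52) and 0 higher, against 4.09% of all genes tested that were lower. Without library 4 at 0 µM and 15 min the count was 0 and the median log2 change 0.21, and with edgeR fitted to the 8 libraries of 15 min alone it was 0 as well. Stat2, a transcription factor of the interferon response, had 36.7, 20.6, 41 and 41.1 CPM at 25 µM and 31.3, 51.5, 44.6 and 161 CPM at 0 µM in libraries 1 to 4 of 15 min, so that the groups overlapped and library 4 at 0 µM lay far above the others. Rtp4, another such gene, had 59.4, 27.1, 82.7 and 62.8 CPM at 25 µM and 45, 94.3, 85.6 and 219 CPM at 0 µM in the same libraries. The mean log2(CPM + 1) of the list was 5.98 to 6.70 at 25 µM, and 8.34 in library 4 and 5.91 to 6.51 in the other 3 libraries at 0 µM. Leaving out single libraries at 25 µM gave 1 to 8 lower genes, with 1 without library 2, 4 without library 1 and 5 without library 4. RLE factors gave 8, DESeq2 10 and no filter 23.

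At 60 min 0 of the 32 passed the test (median log2 change 0.004). Stat2 had 33, 33.7, 29.1 and 39.1 CPM at 25 µM and 54.5, 49.5, 80.8 and 79.6 CPM at 0 µM at that time (log2 change -0.94 ± 0.35, adjusted p = 0.0749), with every 25 µM library below every 0 µM library. Rtp4 had a log2 change of -0.78 ± 0.30 at 60 min (adjusted p = 0.0913). With edgeR fitted to the 8 libraries of 60 min alone, 4 of the 32 were lower, and the adjusted p was 0.00027 for Stat2 and 0.00815 for Rtp4.

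The genes that rose at 60 min spanned more of the genome than those that fell. The median distance from start to end was 34.5 kb for higher, 18.7 kb for lower and 24.7 kb for all tested genes, a description with no test.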
